A study of Homo sapiens with 4 samples.

Results

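The S100 genes examined here were S100A11 and 7 relatives from the same arm of chromosome 1: S100A10, S100A6, S100A4, S100A13, S100A16, S100A2 and S100A3. These 8 genes were taken by name from the 57820 genes counted. Of the 8, 5 passed the filter on low values and were tested among 15136 genes, 1 was counted at a few reads and 2 had no read in any library. The question was whether the family moved together or gene by gene when BAP1 was lost.

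S100 proteins are small calcium sensors that carry EF-hand motifs and usually work as dimers. Binding of calcium opens a surface with which most of them hold a target protein, often an annexin or a part of the cytoskeleton. Most of their genes lie side by side at 1q21 around the epidermal differentiation complex, and S100B, S100P, S100G and S100Z lie on other chromosomes. Different tissues use different members: S100A2 and S100A3 are best known from epidermis and hair, whereas S100A6, S100A10 and S100A11 are found in many cell types. BAP1 is the deubiquitinase that removes ubiquitin from lysine 119 of histone H2A, the mark written by RING1A and RING1B in the Polycomb complex PRC1.

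RNA was sequenced from 4 libraries of HAP1 cells, a human line that is close to haploid, grown in IMDM with serum and not treated. The dKO group had the genotype RING1A, RING1B KO and the tKO group the genotype RING1A, RING1B, BAP1 KO, with 2 libraries in each, so every library was labelled as lacking both enzymes that write the mark. RING1A and BAP1 were disrupted by a STOP cassette placed with CRISPR in picked clones, and RING1B KO cells were purchased. The replicates were described as biological, but whether the tKO libraries shared a clone is not given in the sources used here, and p-values measure only the spread between these libraries.

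Reads counted on genes ranged from 16054590 to 18455410 per library, and both tKO libraries were shallower than both dKO libraries. A count of 3, used here as the floor, corresponded to 0.163 to 0.187 CPM, the count scaled to a library of 1e6 gene reads. BAP1 was counted 2046 and 2010 times in dKO but 158 and 107 times in tKO (log2 fold-change tKO against dKO -3.77, SE 0.19, limma adjusted p = 0.0065), as labelled. RING1 (RING1A) was at 12 to 17 counts in every library, and RNF2 (RING1B) at 1102 to 1561, so that the RNA counts do not show the loss of RING1B, and no library with intact RING1A or RING1B was analysed here. Of 6 keratinocyte and 6 myeloid markers, 5 in each list had no more than 3 counts in any library. The summed keratinocyte markers were at 11.2 to 11.8 CPM in dKO and 14.3 to 15.2 CPM in tKO, nearly all of it KRT10, and the summed myeloid markers were at 0.187 to 0.389 CPM. Fibroblast markers summed to 10.5 to 12.98 CPM, melanocyte markers to 11.5 to 14.01 CPM and epithelial markers to 19.3 to 24.01 CPM. In these lists too, 5 of 6 fibroblast, 3 of 5 melanocyte and 3 of 5 epithelial markers had no more than 3 counts in any library. The groups did not overlap in the keratinocyte sum, higher in tKO, and in the melanocyte sum, lower in tKO. The melanocyte sums were only just apart, at 11.76 CPM in dKO 1 and 11.7 CPM in tKO 1. Of 15136 single genes tested, 2469 were lower and 2290 higher in tKO without overlap. The part of these markers in the results was not tested.

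The 8 genes are all transcribed from the minus strand and fall in separate groups. S100A10 (chr1:151955391-151966335, GRCh37) and S100A11 (chr1:152004982-152020383) are neighbours 38.6 kb apart. The other 6 members lie 1490 kb further on, where S100A6 (chr1:153507075-153508720), S100A4 (chr1:153516089-153522612) and S100A13 (chr1:153591263-153603836) span 96.8 kb. S100A3 (chr1:153519805-153521734), S100A2 (chr1:153533584-153540366) and S100A16 (chr1:153579362-153585621) lie among these.

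The 250 bases upstream of the annotated start of the 5 tested members, and of S100A16 as a member without reads, are printed to show how the promoters of this family differ. They were read from GRCh37 chromosome 1 and are given 5′ to 3′ on the minus strand, ending at the base before the start of the canonical transcript, at chr1:152009481-152009730 for S100A11, chr1:151966336-151966585 for S100A10, chr1:153508468-153508717 for S100A6, chr1:153599982-153600231 for S100A13, chr1:153518283-153518532 for S100A4 and chr1:153585614-153585863 for S100A16. Capitals mark each CG dinucleotide and the exact motif TATAAA, searched on both strands.
S100A11: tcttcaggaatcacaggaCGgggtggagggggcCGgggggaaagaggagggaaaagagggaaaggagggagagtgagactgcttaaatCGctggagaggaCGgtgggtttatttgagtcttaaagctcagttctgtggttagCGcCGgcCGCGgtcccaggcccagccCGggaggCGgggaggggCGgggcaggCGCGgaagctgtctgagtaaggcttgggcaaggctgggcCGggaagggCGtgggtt
S100A10: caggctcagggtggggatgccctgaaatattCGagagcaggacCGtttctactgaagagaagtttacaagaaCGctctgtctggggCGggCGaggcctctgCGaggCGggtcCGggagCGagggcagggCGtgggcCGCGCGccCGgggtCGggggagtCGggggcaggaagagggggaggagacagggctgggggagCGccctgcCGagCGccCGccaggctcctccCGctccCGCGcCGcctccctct
S100A6: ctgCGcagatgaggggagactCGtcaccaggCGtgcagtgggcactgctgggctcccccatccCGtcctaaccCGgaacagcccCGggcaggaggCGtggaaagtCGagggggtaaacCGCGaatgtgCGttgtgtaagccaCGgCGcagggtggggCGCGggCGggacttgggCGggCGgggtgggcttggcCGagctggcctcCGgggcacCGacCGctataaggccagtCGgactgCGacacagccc
S100A13: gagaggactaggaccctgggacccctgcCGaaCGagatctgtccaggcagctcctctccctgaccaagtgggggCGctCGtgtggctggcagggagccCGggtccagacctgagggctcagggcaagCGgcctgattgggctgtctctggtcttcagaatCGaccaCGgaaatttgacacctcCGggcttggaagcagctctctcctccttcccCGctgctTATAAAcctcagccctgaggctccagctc
S100A4: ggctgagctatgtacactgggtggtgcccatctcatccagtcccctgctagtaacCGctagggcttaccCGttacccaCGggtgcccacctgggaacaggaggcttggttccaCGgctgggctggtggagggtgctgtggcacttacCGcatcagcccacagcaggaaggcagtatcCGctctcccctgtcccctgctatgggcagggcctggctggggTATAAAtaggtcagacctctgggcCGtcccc
S100A16: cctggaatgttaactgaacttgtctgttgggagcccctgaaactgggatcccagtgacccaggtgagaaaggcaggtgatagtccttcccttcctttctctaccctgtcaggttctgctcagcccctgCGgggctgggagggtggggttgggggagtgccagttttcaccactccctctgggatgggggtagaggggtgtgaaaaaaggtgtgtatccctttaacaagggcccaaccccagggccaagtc

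S100A10 and S100A6 each held 24 CG dinucleotides in this window, S100A11 held 15, S100A13 held 10 and S100A4 held 7. S100A16 held 1, and S100A2 and S100A3 held 4 each. The median over 19121 protein-coding promoters of the same length was 18, with a median of 23 for genes that passed the filter and 5 for genes that did not. S100A13 and S100A4 were the only members with TATAAA, starting 29 and 31 bases upstream of the start, a motif found in 9.0% of all promoters and in 4.7% of those of tested genes. The tested members therefore differed among themselves in CG count and in this exact motif. Variants of the motif were not searched, and the S100A6 window holds tataag near its end. The 3 members with few or no reads had the fewest CG dinucleotides. Annotated S100A11, S100A6, S100A13, S100A4 and S100A2 reach further upstream than the canonical start, so that their windows lie within the annotated gene. Annotated S100A16 reaches a few bases into its window. Gene counts do not show which start was used, so the windows describe the canonical start only.

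**Figure D1:**
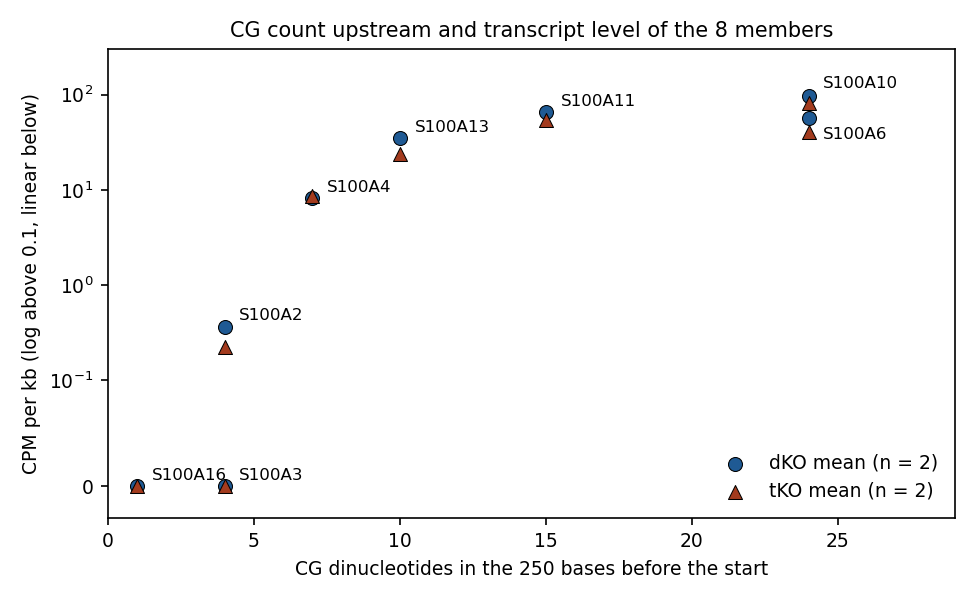
Number of CG dinucleotides in the 250 bases upstream of the start (x axis) against CPM per kb of canonical transcript (y axis, log scale above 0.1 and linear below) for the 8 S100 members, with circles for the dKO mean and triangles for the tKO mean (n = 2 each). The 3 members at or near no reads sit at 1 to 4 CG dinucleotides and the 5 tested members at 7 to 24.

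Among the expressed members the level was ordered in the same way in both groups. Per kilobase of the canonical transcript, which allows genes to be compared, the dKO levels were 97.2 ± 4.70 CPM per kb for S100A10, 65.3 ± 2.49 for S100A11, 56.7 ± 9.25 for S100A6, 35.1 ± 5.76 for S100A13 and 8.12 ± 0.913 for S100A4 (mean ± SD, n = 2). S100A11 and S100A6 did not differ beyond this spread, whereas the other neighbours in the order did. In tKO the levels were 82.0 ± 6.70 for S100A10, 53.9 ± 13.3 for S100A11, 40.9 ± 22.1 for S100A6, 23.6 ± 13.4 for S100A13 and 8.61 ± 4.62 for S100A4 (mean ± SD, n = 2). There, each neighbouring pair below S100A10 overlapped within 1 SD, and in tKO 1 the order changed, with S100A6 at 56.6 CPM per kb above S100A11 at 44.5. S100A10 alone made up 43.3% to 47.9% of the counts of the 8 members in each library.

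No tested member passed the threshold between tKO and dKO, which was an adjusted p below 0.05 with an absolute log2 fold-change above 1. All 5 had a log2 fold-change below 0, with a median of -0.29 and a range of -0.68 to -0.02, while 50.3% of all tested genes were below 0 with a median of -0.0014. The common direction rested on tKO 2: without it 3 of the 5 were lower and the median was -0.06, without tKO 1 all 5 were lower with a median of -0.59, and without dKO 1 4 were lower. The threshold was passed by 2 of 15136 genes (0.0132%), of which BAP1 was 1, the share against which the members' count is read. At an unadjusted p below 0.05 there were again 0 members, against 3.55% of all genes, and edgeR's quasi-likelihood test and DESeq2 each called 0 members. Because these are bulk samples, fewer cells expressing a gene and less RNA per cell cannot be told apart.

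**Figure D2:**
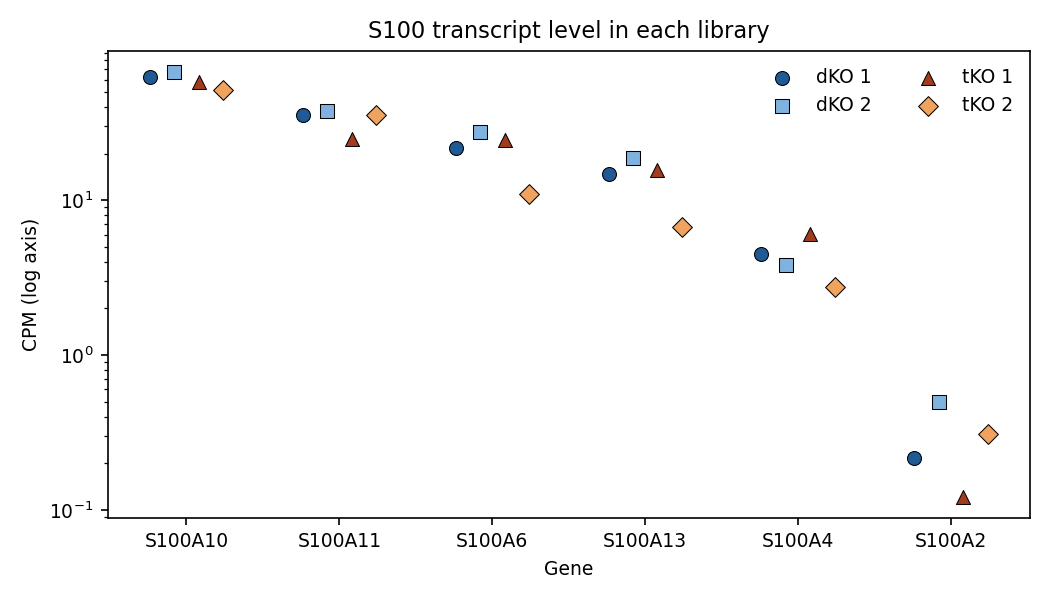
CPM (y axis, log scale) of the 6 S100 members with any reads (x axis), with a point for each of the 4 libraries. S100A11 is lowest in tKO 1 at 25.04 CPM, whereas S100A6, S100A13 and S100A4 are lowest in tKO 2 at 10.96, 6.73 and 2.74 CPM.

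S100A11, which binds annexin A1 and is known from membrane repair and growth control, was counted 660 and 679 times in the dKO pair, 411 times in tKO 1 and 572 times in tKO 2. These correspond to 35.76 and 37.74 CPM in dKO and 25.04 and 35.63 CPM in tKO. The low value came from tKO 1, at 68.2% of the dKO level (95% counting interval of the ratio 0.609 to 0.762), whereas tKO 2 was at 97.0% (0.878 to 1.07) and only just below the lower dKO library. The group means were 36.8 ± 1.40 and 30.3 ± 7.49 CPM (SD, n = 2), and the log2 fold-change was -0.29 (SE 0.18, 95% interval -0.72 to 0.14, limma adjusted p = 0.996). The tKO libraries differed from each other by 1.42 times (1.25 to 1.62), against 1.06 times (0.947 to 1.18) for dKO. Such intervals cover counting error only and leave out variation between cultures. Even counting error may be understated, since PCR copies are not independent molecules. The 7 annotated S100A11 pseudogenes held 1 count in all, and reads that mapped to several places were not counted on any copy.

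S100A10, the light chain that ties annexin A2 into a complex at the plasma membrane and that no longer binds calcium itself, was the most abundant member. It had 1162 and 1213 counts in dKO and 955 and 832 in tKO, or 63.0 and 67.4 CPM against 58.2 and 51.8 CPM. Both tKO libraries were below both dKO libraries, at 89.3% (0.827 to 0.963) and 79.5% (0.734 to 0.861) of the dKO level. The log2 fold-change was -0.24 (SE 0.12, 95% interval -0.52 to 0.04, limma adjusted p = 0.996). S100A10 and S100A11 were the 2 members whose groups did not overlap in this direction, a pattern found in 16.3% of all tested genes. With 2 libraries against 2, an exact permutation test of a single gene cannot go below p = 0.333.

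S100A6, or calcyclin, which binds the ubiquitin ligase adaptor CACYBP, had 402 and 494 counts in dKO, 403 in tKO 1 and 176 in tKO 2. Its CPM were 21.8 and 27.5 in dKO, 24.6 in tKO 1 and 10.96 in tKO 2. Here tKO 1 lay between the dKO libraries at 99.9% of their level (0.886 to 1.13), and tKO 2 stood apart at 44.6% (0.377 to 0.525). The log2 fold-change over both tKO libraries was -0.57 (SE 0.36, 95% interval -1.44 to 0.30, limma adjusted p = 0.996).

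S100A13, which takes part in the unconventional release of FGF1 from cells, had the same pattern. Its counts were 273 and 336 in dKO, 259 in tKO 1 and 108 in tKO 2, which gave 14.8, 18.7, 15.8 and 6.73 CPM. Again tKO 1 was within the dKO range at 94.4% (0.813 to 1.09) and tKO 2 outside it at 40.3% (0.325 to 0.495). The log2 fold-change was -0.68 (SE 0.39, 95% interval -1.60 to 0.25, limma adjusted p = 0.996). In the later GENCODE release used here for positions, S100A13 shares 24.2% of its annotated exon bases with ENSG00000271853 on the same strand. Reads on bases shared at counting could not be assigned to either gene. The overlap in the earlier release used for counting was not examined. S100A13 also shares 10.6% with S100A1 on the opposite strand, from which the stranded counting separated it.

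S100A4, or metastasin, which acts on the non-muscle myosin heavy chain MYH9, was lower in abundance and lay on both sides of dKO. It had 83 and 69 counts in dKO, 100 in tKO 1 and 44 in tKO 2, or 4.50, 3.84, 6.09 and 2.74 CPM. The tKO 1 library was at 146% (1.12 to 1.89) and tKO 2 at 65.7% (0.459 to 0.925) of the dKO level. The log2 fold-change was -0.02 (SE 0.40, 95% interval -0.96 to 0.93, limma adjusted p = 0.999), and it turned to 0.09 in both edgeR's quasi-likelihood test and DESeq2.

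**Figure D3:**
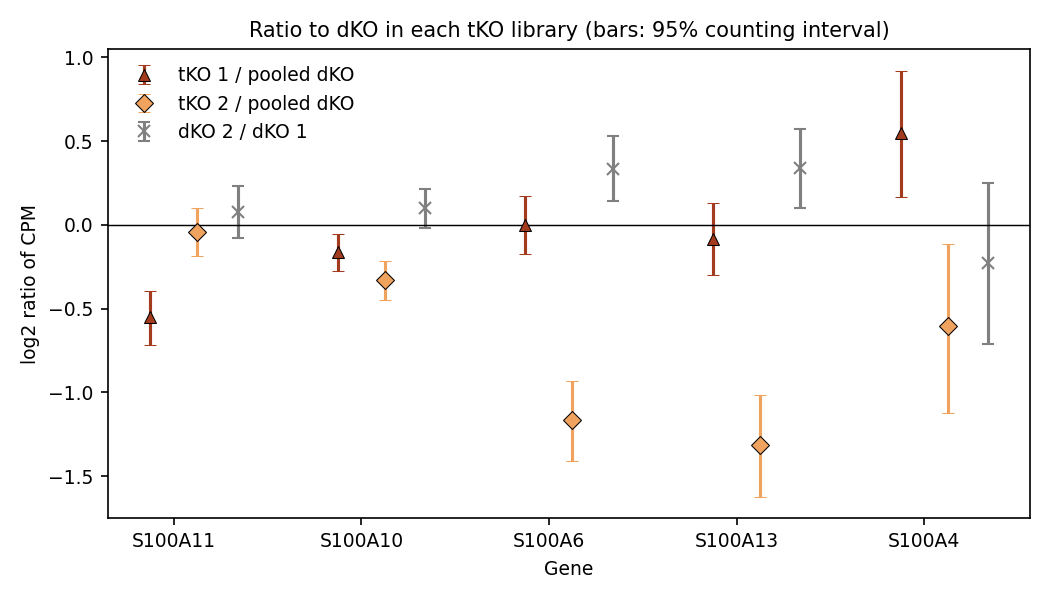
Log2 ratio of CPM (y axis) of tKO 1 and of tKO 2 to the pooled dKO libraries, and of dKO 2 to dKO 1, for the 5 tested S100 members (x axis), with bars for the 95% counting interval. The counting interval lies wholly below dKO for S100A11 in tKO 1 alone and for S100A6 and S100A13 in tKO 2 alone. It lies below dKO in both tKO libraries for S100A10. For S100A4 it lies above dKO in tKO 1 and below it in tKO 2.

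The remaining members were at or near the floor. S100A2, a member known from basal keratinocytes, had 4 and 9 counts in dKO and 2 and 5 in tKO, with overlapping groups and no test. S100A16 and S100A3 had 0 counts in every library, which allows up to 0.163 to 0.187 CPM per library. Of 13 further S100 genes listed for the rest of the family, including S100A8, S100A9, S100B and S100P, 8 had 0 counts in every library and the highest count of any was 3.

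For 4 of the 5 tested members the difference between the tKO libraries was larger than that between the genotypes, and S100A10 was the exception. The share of all tested genes with this pattern was not computed. A difference between single libraries also varies more than one between means of 2, so nothing is concluded from this count. From tKO 1 to tKO 2 the log2 difference was -1.24 for S100A13, -1.18 for S100A6, -1.14 for S100A4 and -0.19 for S100A10, but 0.48 for S100A11, opposite in sign. S100A6, S100A13 and S100A4 were thus more than 2-fold apart between the tKO libraries, as were 6.95% of all tested genes, and 0 members were that far apart between the dKO libraries, against 2.48% of genes. The median absolute log2 difference of the 5 members was 1.14 between tKO libraries and 0.24 between dKO libraries, and over all genes it was 0.203 and 0.138. The labels name no batch, clone or date for these cultures, and the relation of this difference to the loss of BAP1 was not tested.

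Expressing each member relative to S100A10 within a library removes the library total from the comparison. The count ratio of S100A11 to S100A10 was 0.568 and 0.560 in dKO, 0.430 in tKO 1 and 0.688 in tKO 2. For S100A6 the ratio was 0.346 and 0.407 in dKO, 0.422 in tKO 1 and 0.212 in tKO 2, and for S100A13 it was 0.235, 0.277, 0.271 and 0.130 in the same order. The S100A11 ratio was therefore lowest where the ratios of S100A6 and S100A13 were close to or above dKO, and highest where they were lowest. Summed over the 8 members, the family was at 140.0 and 155.6 CPM in dKO and 129.8 and 108.2 CPM in tKO.

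When each tKO library was set alone against the dKO pair in limma, with the lone library assumed to vary as the dKO pair does, the 2 libraries gave different members. Against tKO 2, S100A6 (log2 fold-change -1.16, adjusted p = 2.06e-08) and S100A13 (-1.30, adjusted p = 8.85e-08) fell past the threshold, as did 2.29% of 14936 genes, and S100A10, S100A4 and S100A11 did not (adjusted p of 0.0837, 0.341 and 0.914). Against tKO 1, S100A11 was lower by an adjusted p of 0.0192 (log2 fold-change -0.54, short of the fold threshold), an adjusted p reached in that direction by 2.09% of genes, and the other 4 tested members had adjusted p of 0.520 (S100A4, log2 fold-change 0.55) to 0.990. These p-values describe single cultures and not the genotype.

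The genes around the family lay on both sides of 0. Within 500 kb of a member, 23 genes other than S100 genes were tested, of which 10 (43.48%) were lower and 13 higher in tKO, against 50.3% lower among all tested genes, with a median log2 fold-change of 0.0038 and a range of -0.37 to 0.40. None passed the threshold in limma, and 1 of the 23 had an unadjusted p below 0.05, where 3.55% of all genes did. Their median was 0.07 in tKO 1 and -0.04 in tKO 2, where the median of the 5 members was -0.06 and -0.59. THEM4, a thioesterase gene, was the nearest tested neighbour of S100A10 and S100A11, at 73.3 and 123 kb. It was at -0.47 relative to dKO in tKO 1 and at -0.21 in tKO 2 (log2 fold-change -0.34, SE 0.18, limma adjusted p = 0.996). In the same order S100A11 was at -0.53 and -0.05, and S100A10, the nearer member, at -0.15 and -0.34. The nearest tested neighbour of the other 6 members was ENSG00000272030, on the same strand and 78 bases from S100A13, which had 12 and 9 counts in dKO, 14 in tKO 1 and 4 in tKO 2. It was the 1 neighbour of 23 more than 2-fold apart between the tKO libraries, in the direction of S100A13. Of all tested genes, 6.95% were that far apart. On these few counts the tKO 2 to tKO 1 ratio of ENSG00000272030 was 0.292, with a wide counting interval of 0.07 to 0.93. Whether it moved with S100A13 was not tested.

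**Figure D4:**
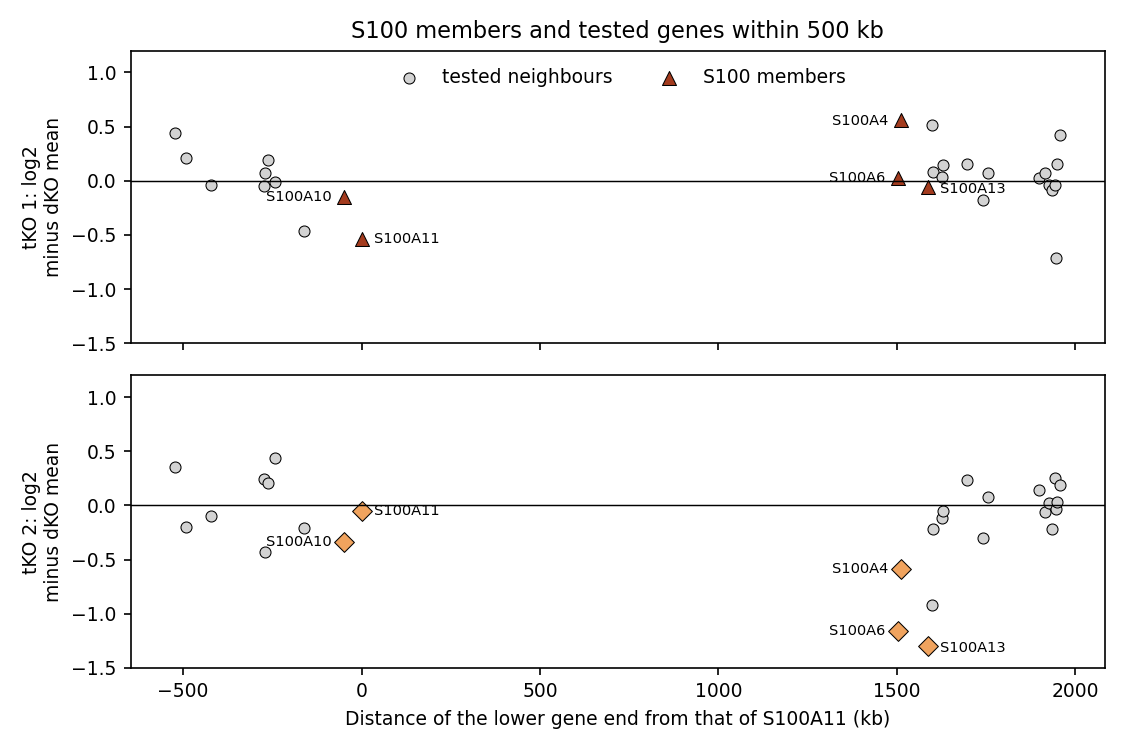
Log2-CPM of tKO 1 (top) and tKO 2 (bottom) minus the dKO mean (y axes) for S100 members and the 23 tested genes within 500 kb, against the distance of the lower gene end from that of S100A11 in kb (x axis). S100A11 is low in tKO 1 at -0.53, S100A6 and S100A13 are low in tKO 2 at -1.16 and -1.30, and most neighbours lie near 0 in both.

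Proteins that S100 members bind or act on were listed with them, and 16 of 21 passed the filter. Of these, 8 were lower and 8 higher in tKO, with a median log2 fold-change of 0.01, and 0 passed the threshold in limma. ANXA2, which encodes the annexin bound by S100A10, had 4570 and 3951 counts in dKO and 3253 and 2628 in tKO, or 247.6 and 219.6 against 198.2 and 163.7 CPM. It was the 1 partner with an unadjusted limma p below 0.05 (0.0266, with an adjusted p of 0.996), at a log2 fold-change of -0.37 (SE 0.13, 95% interval -0.68 to -0.06), against 3.55% of all genes with such a p. Both tKO libraries were below both dKO libraries for 3 of the 16 partners, ANXA2 among them, and for 16.3% of all genes.

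ANXA1, the annexin bound by S100A11, was higher than dKO in 1 library only. It had 12 and 7 counts in dKO, 5 in tKO 1 and 139 in tKO 2, or 0.650, 0.389, 0.305 and 8.66 CPM (log2 fold-change 1.63, SE 1.25, limma adjusted p = 0.996). The value depended on the method, at 3.08 in edgeR's quasi-likelihood test and 3.10 in DESeq2 (adjusted p of 0.998 and 1.00), and without tKO 1 it was 3.81 (limma adjusted p = 1.19e-16). SYT1, a synaptotagmin that takes part in FGF1 release with S100A13, had 3, 2, 5 and 52 counts in the same order and did not pass the filter, and FGF1 itself had none. AHNAK, a scaffold held by the complex of S100A10 and annexin A2, had 6824 and 6550 counts in dKO, 3384 in tKO 1 and 6510 in tKO 2. Its tKO 1 level was 56.2% of dKO, so that it was low in the culture in which S100A11 was low. This was not particular to AHNAK: relative to the dKO mean, 12 of the 16 tested partners were lower in tKO 1. In tKO 2, 6 of the 16 were lower. Over all 15136 tested genes, 7454 were lower in tKO 1 and 7333 in tKO 2. SYT1, FGF1 and AHNAK were named after their values were seen.

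**Figure D5:**
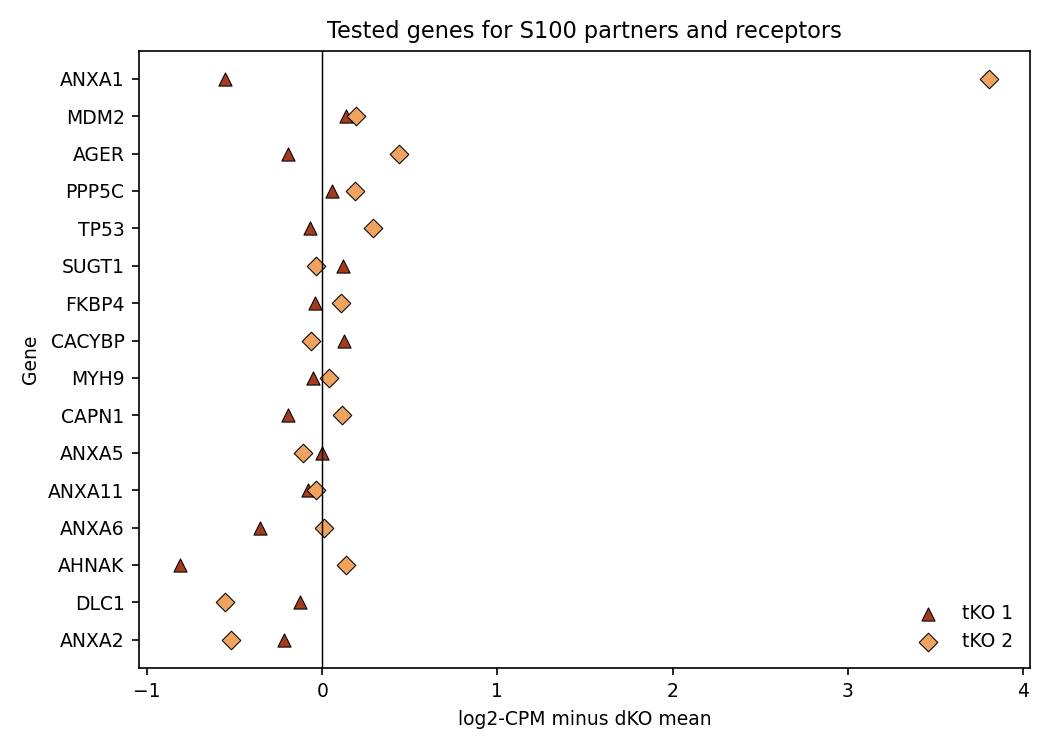
Log2-CPM of tKO 1 and tKO 2 minus the dKO mean (x axis) for the tested partners of S100 proteins (rows). ANXA2 is below 0 in both libraries, AHNAK is lowest in tKO 1 and ANXA1 is raised in tKO 2 alone.

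Likeness to S100A11 over the 4 libraries was measured as the root mean square distance of log2-CPM centred on each gene's mean, over 6991 genes with a mean log2-CPM of at least 5. S100A10 was the only tested relative above that mean, so S100A6, S100A13 and S100A4 could not be among the genes returned. The 3 closest genes were FREM2 at 0.0275, KLF13 at 0.0321 and ANK2 at 0.0328. S100A10 was at 0.240, with 2947 genes closer. S100A4, S100A6 and S100A13, less abundant than the genes searched, were at 0.601, 0.610 and 0.645. FREM2 had 103.9 and 105.5 CPM in dKO, 73.8 in tKO 1 and 102.9 in tKO 2, low in the same culture as S100A11. With 4 libraries such closeness is a description of these libraries.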

How the data were processed

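RNA was sequenced from 2 dKO and 2 tKO libraries of HAP1 cells, grouped by the genotype in the labels. The deposited values were raw gene counts, with no pooling of replicates: the authors trimmed reads with cutadapt (1.12) in Trim Galore (0.4.4), removed ribosomal reads with Bowtie (1.2) and had STAR (2.5.2b) count uniquely mapped reads on GENCODE genes of GRCh37. The column antisense to the gene, the orientation of this stranded kit, was used; the opposite strand held 4.01% to 4.24% of stranded gene reads. Rows that name no gene took 27.31% to 28.71% of reads and were left out.

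CPM divides counts by the gene total. Genes were tested if their CPM exceeded 0.5 in 2 or more libraries, with limma (3.58.1) on log2-CPM from edgeR (4.0.16; TMM, prior count of 2) in R (4.3.3), with genotype as the term, a mean-variance trend and Benjamini-Hochberg adjustment over all tested genes. The prior count understates the change of low genes. DESeq2 (1.42.0), edgeR's quasi-likelihood test, other filters, prior counts and library sizes, unstranded counts, a replicate block and leaving out each library were alternatives.

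The members and lists were chosen with earlier results of these data known. Named by rule were the 8 members, partners with an unadjusted p below 0.05 or first listed (ANXA2, ANXA1), the nearest tested neighbour of each member and the 3 genes closest to S100A11. Symbols and positions were matched by gene identifier to a later GENCODE release on GRCh37, which gave a symbol for 97.51% of tested genes. Libraries of a group differed beyond counting noise (chi-square per degree of freedom 7.18 for dKO and 20.3 for tKO), so none was a repeat deposit.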

Additional observations from a re-analysis of the deposited data

How the results depend on the processing

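No alternative with all 4 libraries called a member, and over those the log2 fold-change stayed between -0.30 and -0.27 for S100A11, -0.25 and -0.24 for S100A10, -0.58 and -0.46 for S100A6 and -0.69 and -0.56 for S100A13. S100A4 turned to 0.0922 in edgeR's quasi-likelihood test and to 0.093 in DESeq2. Leaving out 1 library moved the members called from 0 to 2 (S100A6 and S100A13, without tKO replicate 1), the members lower from 3 to 5 and their median from -0.59 to -0.06, with S100A4 between -0.59 and 0.55, S100A6 between -1.16 and 0.0191 and AHNAK between -0.82 and 0.14. Over all genes, the main count of 2 became 0 with no filter on low counts, 1 with a CPM above 5, 1 in edgeR's quasi-likelihood test, 25 in DESeq2, 1 without the trend, 1 with unstranded counts and 0 to 480 when 1 library was left out (175 without tKO replicate 2, 480 without tKO replicate 1). BAP1 missed the adjusted p with no filter (-3.78, adjusted p = 0.734), without the trend (-3.77, adjusted p = 0.384) and without either dKO library (-3.77 and -3.78). The causes were not tested. The 3 members over 2-fold apart between the tKO libraries stayed 3 with TMM library sizes and with unstranded counts, both chosen after seeing the data.

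The correlation of deviations between libraries of the same replicate number was 0.0581. With 2 libraries in each group this is a single value, which cannot decide whether the libraries were paired. With a replicate block in the fit, 13 genes and 0 members passed, and the smallest member p was 0.0714 (S100A13). S100A2, S100A3 and S100A16 did not pass the filter on low counts.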

Other observations

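S100A1, which encodes a heart and muscle S100 protein and lies on the plus strand opposite S100A13, had 48 and 44 reads in dKO and 41 and 34 in tKO in the column for the opposite strand, where its exons overlap those of S100A13 by 235 bases, of ENSG00000272030 by 320 bases and of ENSG00000271853 by 34 bases. In the column used here it had no more than 3 counts in any library. Which of these genes the reads came from was not tested.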
